A study of Mus musculus with 7 samples.

Results

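The 7 genes described here encode AP-1 transcription factors: the Fos proteins Fos, Fosb and Fosl2, the Jun proteins Jun, Junb and Jund, and the related factor Atf3. The samples are vessel fragments from mouse brains, taken 4 hours after an injection into the cerebral ventricles (ICV). The members are the probe sets of the array to which the platform annotation gives only 1 gene symbol, that of a member. The 7 genes had 8 such probe sets among 33793, because Jund had 2, and each gene is described by its brightest one. All 7 genes passed the filter on dim probe sets, as did 15582 of the 22180 genes with a probe set of their own. All mice were female and 12 weeks old. Their strain is given as C57BL/6N in the study's design and as C57BL/6 in the sample labels. Of the 7 samples, 4 came after PDGF-CC, a ligand of the receptor PDGFR-alpha, and 3 after PBS, the salt solution used as the control injection. The labels name no genetic change in either group, and all samples share the ICV injection itself. The sources used here do not give the dose, the isolation of the fragments or whether a sample pooled several mice. Each sample was read on 1 array, and nothing says that the samples are separate mice, so the p-values rest on a spread that could be technical.

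AP-1 is a pair of proteins of the bZIP class, joined by a leucine zipper and bound to DNA by a basic region. Jun proteins pair with each other or with Fos proteins, whereas Fos proteins need a partner from another branch of the class. Fos, Fosb and Junb are classic immediate-early genes, which growth factor receptors switch on through ERK and other kinases without new protein synthesis, and their RNA is short-lived. Jund is made in most cells at a steady level, Fosl2 usually rises later than Fos, and Atf3 is best known as a stress-induced factor. Endothelial cells, mural cells, microglia and neurons can all make these factors.

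Promoter sequences are shown for the 5 members whose windows hold letters of an element known to be bound by CREB, ATF and Jun proteins. RefSeq windows of the build GRCm38.p6 run from 250 bases before to 50 bases after the start that the table gives, and all 7 members had 1 such window. They are printed on the gene's strand, 5′ to 3′. Capitals mark matches to TGACG or its reverse complement CGTCA (the core of the cyclic AMP response element, CRE), to TATAAA or TTTATA (the TATA box), and to TGACATCA or TGATGTCA (a variant of the CRE known from the Jun promoter). The windows are those of Fos at chr12:85473640-85473939 (plus strand), Fosb at chr7:19309996-19310295 (minus strand), Jun at chr4:95052173-95052472 (minus strand), Junb at chr8:84978699-84978998 (minus strand) and Atf3 at chr1:191183284-191183583 (minus strand).
Fos: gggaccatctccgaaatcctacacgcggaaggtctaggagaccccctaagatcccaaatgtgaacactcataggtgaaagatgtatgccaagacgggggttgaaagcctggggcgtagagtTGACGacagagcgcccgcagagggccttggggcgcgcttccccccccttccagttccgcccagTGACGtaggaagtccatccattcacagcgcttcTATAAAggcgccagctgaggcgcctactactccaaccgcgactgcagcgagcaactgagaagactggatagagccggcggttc
Fosb: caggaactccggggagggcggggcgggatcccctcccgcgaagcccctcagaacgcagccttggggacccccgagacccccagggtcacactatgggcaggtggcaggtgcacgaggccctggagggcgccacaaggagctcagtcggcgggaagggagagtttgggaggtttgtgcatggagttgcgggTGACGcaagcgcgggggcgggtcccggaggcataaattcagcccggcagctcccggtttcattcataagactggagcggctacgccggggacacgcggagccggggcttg
Jun: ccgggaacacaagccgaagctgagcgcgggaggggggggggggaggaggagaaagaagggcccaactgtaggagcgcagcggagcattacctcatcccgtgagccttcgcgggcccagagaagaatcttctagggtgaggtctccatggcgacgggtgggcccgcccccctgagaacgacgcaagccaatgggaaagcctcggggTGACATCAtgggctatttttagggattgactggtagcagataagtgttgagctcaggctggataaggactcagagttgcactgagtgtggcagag
Junb: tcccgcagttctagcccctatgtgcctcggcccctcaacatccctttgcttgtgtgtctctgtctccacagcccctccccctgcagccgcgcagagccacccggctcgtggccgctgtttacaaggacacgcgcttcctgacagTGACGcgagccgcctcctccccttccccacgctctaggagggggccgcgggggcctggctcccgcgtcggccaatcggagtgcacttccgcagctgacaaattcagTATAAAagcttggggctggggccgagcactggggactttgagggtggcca
Atf3: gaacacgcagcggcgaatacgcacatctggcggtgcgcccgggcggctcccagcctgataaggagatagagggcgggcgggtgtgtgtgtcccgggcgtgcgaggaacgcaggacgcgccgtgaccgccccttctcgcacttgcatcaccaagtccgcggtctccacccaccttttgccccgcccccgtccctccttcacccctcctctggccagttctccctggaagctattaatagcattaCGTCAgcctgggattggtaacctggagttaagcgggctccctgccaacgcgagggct

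The CRE core was found in the windows of 4 of the 7 members (Fos, Fosb, Junb and Atf3), and in 20.8% of the 32851 windows of this length in the table. In Fos it began at bases -129 and -66 counted from the start, in Fosb at -60, in Junb at -106 and in Atf3 at -7. The variant in the Jun window began at base -45, and 3.62% of all windows held that variant. The letters of the TATA box were found in Fos, at base -33, and in Junb, at base 1 of the transcript as the table gives its start, against 13.6% of all windows. The full CRE, TGACGTCA, which contains the core, was in 0 of the 7 windows (1.79% of all). The AP-1 site, TGACTCA or its reverse complement TGAGTCA, was also in 0 (5.20% of all), as was the CArG box of serum response factor (1.63% of all). Elements more than 250 bases before the start lie outside these windows and were not searched. CCAAT or ATTGG was in 3 members (37.4% of all) and the GC box, GGGCGG or CCGCCC, in 5 (35.7% of all). All motifs were searched on both strands. Matches are descriptions of these letters, not sites shown to be bound.

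Of the 7 genes, 6 had a higher mean level after PDGF-CC than after PBS, and for Fos, Fosb, Junb and Jund the lowest PDGF-CC array lay above the highest PBS array. The differences of these 4 genes came to between 1.41-fold (Fosb) and 1.62-fold (Fos). No member passed the threshold of 0.05 on p-values of limma adjusted over 17734 probe sets by the Benjamini-Hochberg method. Of all these probe sets, 0 passed it, or 0%, while 1071 had an unadjusted limma p under 0.05. After adjustment the exact permutation test could call no member, because its smallest possible p of 0.0286 became 0.884. Groups that stood apart in the higher direction made up 1.80% of all tested probe sets. At an unadjusted p under 0.05, 4 of the 7 members were higher by limma, beside 2.63% of all tested probe sets. By the exact permutation test 2 members were, beside 1.03%. The median difference of the members was +0.49 on the log2 scale, beside -0.003 for the 15582 tested genes. The share of genes with a positive difference was 48.7% among tested genes. The members were chosen with earlier results of these data known, so these shares describe them and test nothing.

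**Figure D1:**
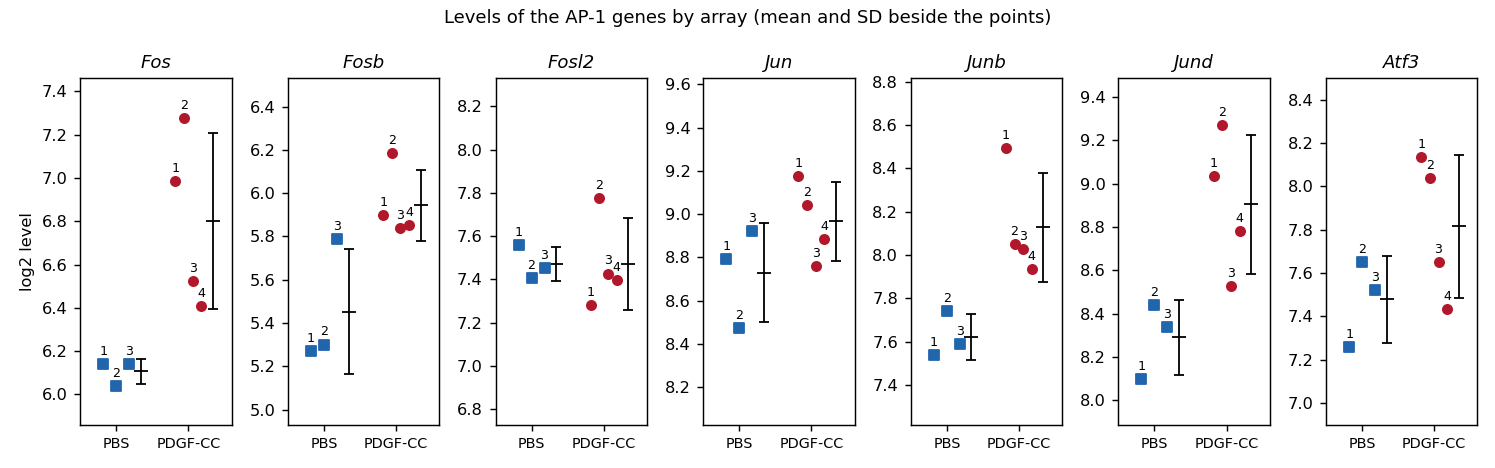
Log2 level of each of the 7 genes (vertical axis, a span of equal height in every panel) in the 3 PBS arrays (blue squares) and the 4 PDGF-CC arrays (red circles), with the array number at each point and the group mean ± SD in black. The groups do not overlap for Fos, Fosb, Junb and Jund, and overlap for Fosl2, Jun and Atf3; heights are not comparable between genes.

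Among the Fos genes, Fos, the partner that gives AP-1 its strong activating form, had the widest difference of all members. Its log2 levels were 6.99, 7.28, 6.53 and 6.41 in PDGF-CC arrays 1 to 4 and 6.14, 6.04 and 6.14 in PBS arrays 1 to 3. All PDGF-CC arrays lay above all PBS arrays, and arrays 1 and 2 lay well above arrays 3 and 4. The PBS arrays were close together, with an SD of 0.058, against 0.41 in PDGF-CC. The difference was +0.69 ± 0.21 (log2, SE, n = 4 and 3), with a 95% interval from +0.20 to +1.18, and the limma adjusted p was 0.769. This was the 14th largest positive difference of the 15582 tested genes. An exact permutation test over all 35 splits of the arrays, 2-sided, gave p = 0.0571, where the smallest possible p is 0.0286. The intervals here are for single genes and are not adjusted for the number of genes.

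Fosb, a close relative of Fos with a short form (ΔFosB) known to persist in neurons, had log2 levels of 5.90, 6.19, 5.84 and 5.85 after PDGF-CC and 5.27, 5.30 and 5.79 after PBS. The groups stood apart by only 0.050, because PBS array 3 reached almost the level of PDGF-CC arrays 3 and 4. The difference was +0.49 ± 0.15 (interval +0.14 to +0.84, adjusted p = 0.769 by limma), and the exact permutation p was 0.0286, 2-sided and unadjusted. Adjusted over all tested probe sets, that permutation p was 0.884, and 0.0286 is the smallest p this test can give.

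Fosl2 (Fra-2), a Fos protein without the strong activation domains of Fos, was the member without a difference in the mean. Its levels were 7.28, 7.78, 7.43 and 7.40 after PDGF-CC and 7.56, 7.41 and 7.45 after PBS. PDGF-CC array 2 was the highest and PDGF-CC array 1 the lowest of all 7 arrays, so the PBS arrays lay inside the PDGF-CC range. The difference was -0.003 ± 0.12 (adjusted p = 0.997 by limma), and its interval, from -0.28 to +0.28, allows changes of up to 1.21-fold in the higher direction. Its sign depended on single arrays: it was -0.10 if PDGF-CC array 2 was left out and +0.060 if PDGF-CC array 1 was.

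Among the Jun genes, Junb, which is induced by growth factors together with Fos, had the smallest unadjusted p of the members. Its levels were 8.49, 8.05, 8.03 and 7.94 after PDGF-CC and 7.54, 7.74 and 7.59 after PBS. The groups stood apart by 0.19, and PDGF-CC array 1 was highest while arrays 2, 3 and 4 were close together. The difference was +0.50 ± 0.14 (interval +0.18 to +0.83, adjusted p = 0.769 by limma), with an exact permutation p of 0.0286, 2-sided and unadjusted. Without PDGF-CC array 1 it was +0.38.

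Jund, usually the steady member of the family, had 2 probe sets that gave different sizes. On the brighter one, 17510127, levels were 9.04, 9.27, 8.53 and 8.78 after PDGF-CC and 8.10, 8.44 and 8.34 after PBS. The groups stood apart by 0.088, with PDGF-CC arrays 1 and 2 highest. The difference was +0.61 ± 0.18 (interval +0.19 to +1.04, adjusted p = 0.769 by limma), with an exact permutation p of 0.0571. On the other probe set, 17502001, levels were 6.72, 6.76, 6.57 and 6.58 against 6.41, 6.50 and 6.61, and the groups overlapped. Its difference was +0.15 ± 0.076 (interval -0.03 to +0.33), and the mean of both probe sets gave +0.38. The value for Jund thus depends on which probe set is read.

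Jun, the founding member of the family and the preferred partner of Fos, was at 9.18, 9.04, 8.76 and 8.88 after PDGF-CC and at 8.79, 8.48 and 8.92 after PBS. Only PDGF-CC arrays 1 and 2 lay above every PBS array. The difference was +0.24 ± 0.14 (interval -0.09 to +0.56, adjusted p = 0.769 by limma), with an exact permutation p of 0.229. PBS array 2 was the lowest of all, and without it the difference was +0.11.

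Atf3, which pairs with Jun proteins and as a pair with itself represses, was at 8.14, 8.04, 7.65 and 7.43 after PDGF-CC and at 7.26, 7.65 and 7.52 after PBS. PDGF-CC arrays 1 and 2 again lay above all PBS arrays, whereas array 4 lay below PBS arrays 2 and 3. PDGF-CC array 3 and PBS array 2 held exactly the same deposited value. The difference was +0.34 ± 0.19 (interval -0.11 to +0.78, adjusted p = 0.769 by limma), with an exact permutation p of 0.257. Without PDGF-CC array 1 or without PBS array 1 it was +0.23.

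**Figure D2:**
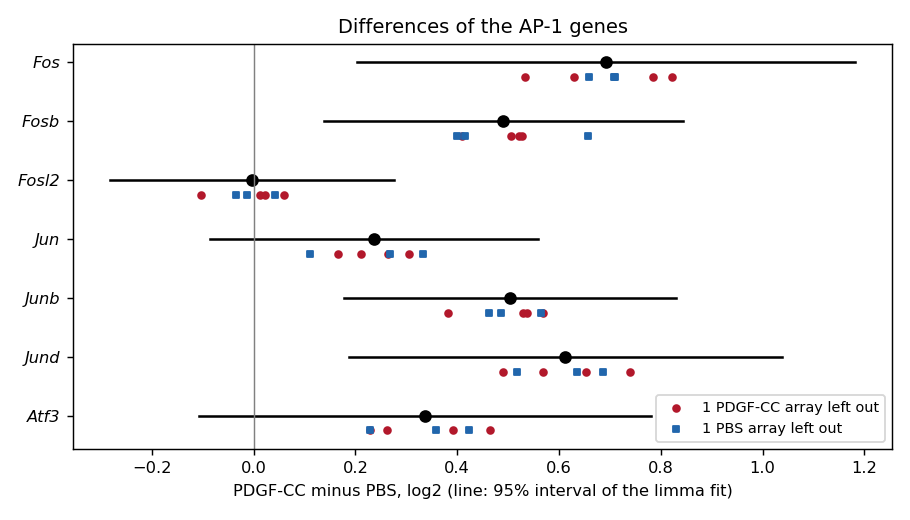
PDGF-CC minus PBS on the log2 scale (horizontal axis) for each gene, with the 95% interval of the limma fit as a line and the difference after leaving out 1 array as small symbols beneath it. Intervals of Fos, Fosb, Junb and Jund lie above 0, those of Fosl2, Jun and Atf3 include 0, and leaving out any 1 array changes the sign only for Fosl2.

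Levels of the members moved together across arrays, mostly through PDGF-CC arrays 1 and 2. Those arrays were the 2 highest for 6 of the 7 genes, Fosl2 being the exception, whereas this held for 9.99% of the tested genes. Averaged over the 7 genes, the deviation from each gene's mean was +0.32 and +0.41 in PDGF-CC arrays 1 and 2. It was near 0 in PDGF-CC arrays 3 and 4, and -0.30, -0.25 and -0.15 in PBS arrays 1 to 3. PDGF-CC arrays 3 and 4 thus lay between the other PDGF-CC arrays and the PBS arrays. Over the 7 arrays, Pearson correlations between the 15 pairs without Fosl2 ran from 0.56 to 0.92 with a median of 0.78, as a description of arrays that share a normalization and 2 groups. After the group means were taken out, their median was 0.54 and 14 of 15 were positive, with Fosb and Junb at -0.09. The closest pair was Fos and Jund, at 0.92, and within groups 0.78. Fosl2 followed Fos weakly over the 7 arrays, at 0.35, but at 0.58 once the group means were taken out. It ran against Junb, at -0.29, and within groups at -0.50.

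**Figure D3:**
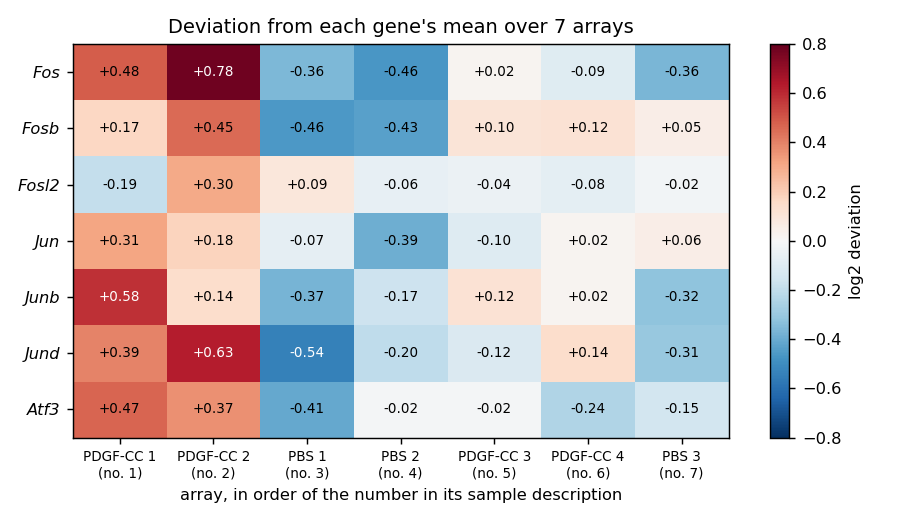
Log2 deviation of each gene (rows) from its own mean over the 7 arrays, with arrays (columns) ordered by description number and colour from blue (below the mean) to red (above it). PDGF-CC arrays 1 and 2, with numbers 1 and 2, hold the reddest cells, up to +0.78 for Fos, and PDGF-CC arrays 3 and 4 are near 0 for most genes.

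Those high arrays also came first in the numbering of the sample descriptions, which goes through both groups: numbers 1, 2, 5 and 6 belong to PDGF-CC and 3, 4 and 7 to PBS. Within numbers 1 to 4 all 7 members were higher after PDGF-CC, by +1.04 for Fos, +0.89 for Jund, +0.76 for Fosb, +0.63 for Junb, +0.63 for Atf3, +0.48 for Jun and +0.045 for Fosl2. Within numbers 5 to 7, with 2 PDGF-CC arrays and 1 PBS array, the values were +0.33 for Fos, +0.32 for Jund, +0.39 for Junb, +0.058 for Fosb and +0.020 for Atf3. Jun and Fosl2 were then lower, at -0.097 and -0.039. Fos, Junb and, on its brighter probe set, Jund thus kept a difference of over 0.3 in both parts. The differences of Fosb, Jun and Atf3 came mostly from numbers 1 to 4. On the other Jund probe set, PDGF-CC arrays 3 and 4 were at 6.57 and 6.58, below PBS array 3 at 6.61. The difference between the parts was not tested. With the number as a covariate Fos was at +0.58, Jund at +0.55, Fosb at +0.52 and Junb at +0.44. PDGF-CC arrays 1 and 2 also stood at one end of the first principal component of all tested probe sets (28.5% of the variance), with scores of -24.4 and -10.7 against 0.5 to 14.9 in the other 5 arrays. What the numbers stand for is not given in the labels, and their part in the differences was not tested.

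**Figure D4:**
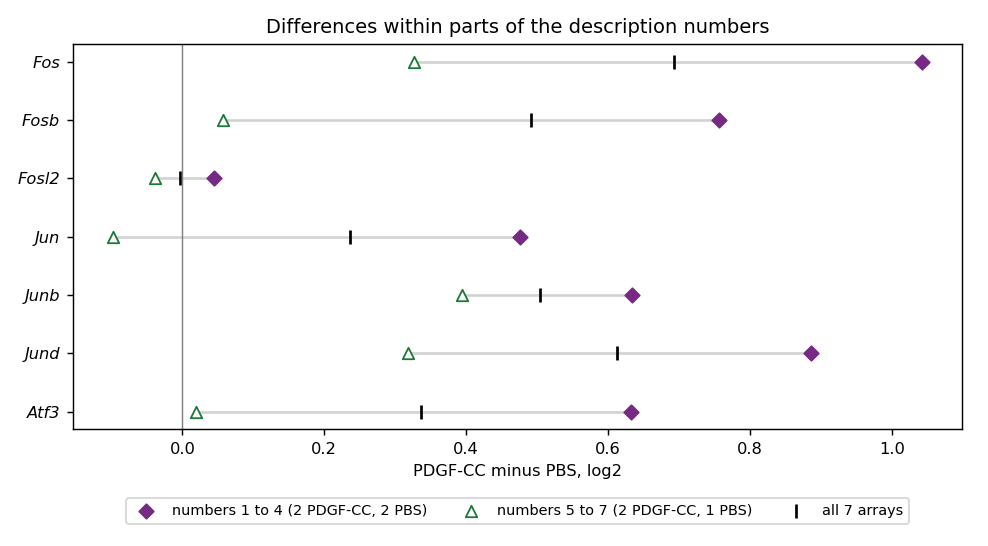
PDGF-CC minus PBS on the log2 scale (horizontal axis) for each gene within description numbers 1 to 4 (filled diamonds), within numbers 5 to 7 (open triangles) and over all 7 arrays (black ticks), without error bars because each part holds 2 or fewer arrays a group. Every diamond lies to the right of its triangle, and for Fosb and Atf3 the triangle lies near 0.

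Without PDGF-CC array 1 and PBS array 2, the arrays farthest out on the first and second component, all 7 members were higher after PDGF-CC. The same 4 genes then had +0.60 (Fos), +0.43 (Fosb), +0.44 (Junb) and +0.64 (Jund), but Junb alone had an unadjusted limma p under 0.05, as 2.06% of all tested probe sets did in the higher direction. Groups that stand apart over all 7 arrays must also do so over fewer. That these 4 members still stood apart was thus fixed in advance and adds nothing. Of tested probe sets, 7.08% stood apart in the higher direction over these fewer arrays. Jun was at +0.039 without these arrays.

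The genes most like Fos and Jun in their pattern were picked by Pearson's r over the 7 arrays among the 15582 tested genes, as a description. For Fos they were Phf23 (r = 0.993), Speer4c (0.975), Defa34 (0.970), Bend4 (0.965) and Lcn12 (0.964). The differences of these genes were positive, from +0.18 for Lcn12 to +0.72 for Speer4c. Among the members Jund came closest to Fos, at rank 50 of 15581 genes, followed by Atf3 at rank 271 and Fosb at rank 301. Junb was at rank 462, Jun at 659 and Fosl2 at 3951, so many genes outside the members were more like Fos. For Jun the genes most alike were Prickle1 (r = 0.983), Rxrb (0.974), Ppif (0.971), Kcnk2 (0.970) and Hoxc10 (0.967), and the closest member was Fos, at rank 773. Then came Fosb at rank 828, Jund at 1487, Junb at 1678, Atf3 at 2144 and Fosl2 at 6840.

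The other bZIP factors that share partners or sites with AP-1 showed no common direction. Of 17 listed genes 15 were measured and 14 tested, of which 6 were positive and 8 negative, with a median of -0.005. None passed the adjusted threshold, and at an unadjusted p under 0.05 there was 1 higher and 1 lower, beside 2.63% and 3.41% of all probe sets. Batf3, a partner of Jun proteins in dendritic cells, was at +0.45 ± 0.16, and Jdp2, a repressor that competes for AP-1 sites, at -0.43 ± 0.15. Maf, a large Maf factor of macrophages and endothelium, was at +0.54 ± 0.24. Its PBS levels were 10.65, 9.50 and 10.17, so PBS array 2 stood low, while the PDGF-CC arrays lay between 10.62 and 10.71. Mafa was at +0.43 ± 0.23.

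Genes of the kinases and factors that switch Fos and Jun genes on were nearly level as a list. Of 30 listed genes 22 were tested, with 13 positive, 9 negative and a median of +0.01, and none passed the adjusted threshold. The largest unadjusted evidence was for lower Mapk9, the kinase JNK2 that phosphorylates Jun (-0.23 ± 0.082), and Mrtfb, a coactivator of serum response factor (-0.21 ± 0.078). Elk1 and Elk3, ternary complex factors that bind beside serum response factor, were at +0.20 ± 0.094 and +0.17 ± 0.078. At an unadjusted p under 0.05 there were 0 higher and 2 lower by limma, beside 2.63% and 3.41% of all tested probe sets. The adjusted limma p was 0.769 for each of these genes.

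Brakes on AP-1 ran in both directions. Of 13 tested genes 8 were positive and 5 negative, with a median of +0.04, and none passed the adjusted threshold. By limma, 2 were higher and 1 lower at an unadjusted p under 0.05, beside 2.63% and 3.41% of all tested probe sets. Zfp36l2 and Zfp36l1, RNA-binding proteins that promote decay of AU-rich mRNAs, were at +0.51 ± 0.086 and +0.42 ± 0.13. Both stood apart in the higher direction, as 1.80% of all tested probe sets did. Zfp36l2 was at 9.25, 9.20, 9.13 and 9.03 after PDGF-CC and at 8.80, 8.51 and 8.63 after PBS, with an adjusted limma p of 0.623. Unlike the AP-1 genes, its 4 PDGF-CC arrays lay within a span of about 0.2. Tsc22d3, the glucocorticoid-induced leucine zipper that can bind and restrain AP-1, was at -0.71 ± 0.16 and stood apart in the lower direction, as 2.50% of all tested probe sets did. Dusp1, a phosphatase of JNK and p38 kinases, was at -0.25 ± 0.11.

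Genes described as targets of AP-1 were split in direction. Of 20 tested genes 8 were positive and 12 negative, with a median of -0.08, and none passed the adjusted threshold. By limma, 1 was higher and 2 lower at an unadjusted p under 0.05, beside 2.63% and 3.41% of all tested probe sets. With PDGF-CC array 4 left out the median was +0.0027, and with PDGF-CC array 2 left out it was -0.13. Of all tested probe sets, 1.80% stood apart in the higher direction. Plau, the urokinase gene, was the one of these targets that did, at 7.66, 7.53, 7.52 and 7.56 against 7.33, 7.07 and 7.27. Its difference was +0.34 ± 0.075 (limma, adjusted p = 0.754). Il6, the interleukin-6 gene, was at 4.75, 5.82, 5.71 and 4.78 after PDGF-CC and at 6.14, 7.15 and 5.74 after PBS, a difference of -1.08 ± 0.41. PDGF-CC array 2 lay above PBS array 3, so its groups overlapped. Cd44, an adhesion receptor, was at -0.46 ± 0.21 and Lif, a cytokine of the interleukin-6 family, at -0.19 ± 0.082.

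Other immediate-early genes were higher more often than lower, with 16 of 25 positive and a median of +0.10, where 48.7% of tested genes were positive. None passed the adjusted threshold. By limma, 1 was higher and 1 lower at an unadjusted p under 0.05, beside 2.63% and 3.41% of all tested probe sets. Ier5, at 8.41, 8.02, 8.12 and 7.73 against 7.44, 7.51 and 7.06, was the one that stood apart in the higher direction, with a difference of +0.73 ± 0.18. Klf6, a Krüppel-like factor of injured endothelium, stood narrowly apart in the lower direction at -0.25 ± 0.12, and Ccn2 was at -0.58 ± 0.21. Of all tested probe sets, 1.80% stood apart in the higher and 2.50% in the lower direction. The list's median fell to +0.03 without PBS array 1. Of 10 genes of neuronal activity 7 passed the filter, with 4 of them positive and a median of +0.02, which was -0.03 with the stricter filter at the 50th percentile and between +0.0046 and +0.059 with 1 array left out. Of these Nptx2 was at +0.19 ± 0.083, Arc at +0.21 ± 0.12, Homer1 at +0.10 ± 0.090 and Bdnf at -0.05 ± 0.051.

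Genes reported to rise while tissue is taken apart, a list that usually includes Fos and Jun but here was taken without AP-1, were mostly lower after PDGF-CC. Of 22 tested genes 6 were positive and 16 negative, with a median of -0.12, where 48.7% of all tested genes were positive. None passed the adjusted threshold. At an unadjusted p under 0.05 there were 0 higher and 3 lower by limma, beside 2.63% and 3.41% of all tested probe sets. Nfkbia, the inhibitor of NF-kB, was at -0.56 ± 0.12, Cebpd, a C/EBP factor of the acute phase, at -0.52 ± 0.20 and Rhob, a small GTPase of endosomes, at -0.15 ± 0.061. Nfkbia and Rhob stood apart in the lower direction, as 2.50% of all tested probe sets did. The lists share genes, Dusp1 being in 3 of them.

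**Figure D5:**
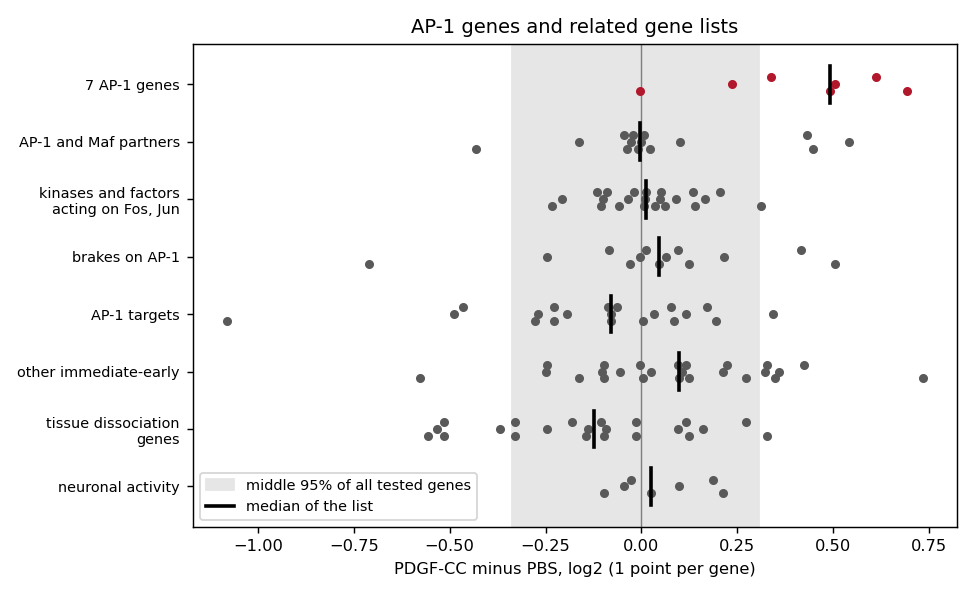
PDGF-CC minus PBS on the log2 scale (horizontal axis), 1 point per tested gene, for the 7 AP-1 genes (red) and 7 related lists (grey), with each list's median as a black bar and the middle 95% of all tested genes, from -0.34 to +0.31, shaded. The AP-1 median lies at +0.49, and the medians of the related lists lie between -0.12 and +0.10.

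The cell types in the fragments were described by marker lists, each as the mean log2 level over its tested genes. All 10 endothelial markers passed the filter, the dimmest at 9.09, and their mean overlapped between the groups (10.69 to 10.83 after PDGF-CC, 10.68 to 10.90 after PBS). In bulk RNA, fewer cells of a type and less RNA per cell cannot be told apart. Microglial markers were higher in 5 of 6 genes, at 9.81 to 9.86 against 9.38 to 9.76, and lymphocyte markers in 3 of 4, at 4.70 to 4.88 against 4.51 to 4.64. Choroid plexus markers were lower in 6 of 7 genes, at 6.48 to 7.28 against 7.39 to 7.72. The means of these 3 lists did not overlap between the groups, and their part in the AP-1 differences was not tested. Within the PDGF-CC arrays, lymphocyte markers were highest in array 2 and neuronal and oligodendrocyte markers in array 1. Microglial markers were highest in array 3 (9.86, with array 2 at 9.84). Neutrophil and monocyte markers were at 6.67, 6.65, 6.30 and 5.37 in PDGF-CC arrays 1 to 4. In PBS arrays 1 to 3 they were at 7.36, 6.99 and 5.93. Pericyte markers ran the other way in PDGF-CC arrays 1 to 4, at 9.11, 9.20, 9.41 and 9.44. The part of these lists in the differences between the PDGF-CC arrays was not tested either. Neuronal markers had 6 of 8 genes past the filter, at 5.26 to 5.40 against 5.21 to 5.27. Median differences of the other lists were +0.17 for smooth muscle (6 of 6 positive), +0.18 for oligodendrocytes (5 of 5 positive) and +0.01 for astrocytes (3 of 6). They were -0.08 for pericytes (1 of 7 positive), -0.08 for perivascular fibroblasts (1 of 6), -0.18 for border-associated macrophages (2 of 5) and -0.54 for neutrophils and monocytes (0 of 6). Erythroid markers had no probe set with a single symbol here.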

How the data were processed

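Total RNA of 7 samples (4 PDGF-CC, 3 PBS), 10 ng each, was amplified and labelled with biotin for arrays, per the labels' protocols. The deposited values are log2 summaries of 33793 probe sets, with array medians from 4.87 to 4.95, and the submitters' processing notes name Affymetrix Expression Console, RMA and limma. RMA equalises distributions between arrays, which removes differences in total RNA. The sources used here give no settings and no genome build, and arrays carry no read depth, so their number limits the precision.

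Tested were the 17734 probe sets that had a symbol and whose mean over the arrays exceeded the 30th percentile, a log2 value of 4.145. The 2 groups were compared in limma 3.58.1 (R 4.3.3) with lmFit and eBayes, without covariates, 2-sided, with Benjamini-Hochberg adjustment over all of them at 0.05. The median residual SD was 0.128. Pairs of arrays correlated at 0.987 to 0.994 and shared between 2527 and 4475 exactly equal values, so none was a copy.

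The members and lists were chosen with earlier results of these data known. Named were all 7 members, up to 4 genes of each related list with the smallest p, and the 5 genes most like Fos and Jun, without predicted, Rik, Olfr and Vmn genes. Of 235 entries of related and marker lists, 209 were matched to a probe set carrying only their symbol, and the brightest was used. On data simulated for this comparison (17734 probe sets, 50 changed at each size), the fit called 29, 41, 48 and 50 at 1.5-, 2-, 4- and 8-fold, with 8 false calls. The simulated noise was normal and drawn separately for each probe set and array, without patterns shared between genes. These counts thus check the fit and do not give the share of such changes found in the real arrays. Other filters, normalizations, priors, weights, covariates, blocks and left-out arrays were tried. Figures were drawn with matplotlib 3.10.9.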

Additional observations from a re-analysis of the deposited data

Results flagged for a closer look

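In 33 genes examined (the members and the genes named from the lists), an array of the 4 in the PDGF-CC group lay far from the other 3 for 4 genes, none of them a member. The measure is the gap to the nearest array divided by the group's range, set against Dixon's 95% critical value for 4 samples, which chance passes in about 5% of groups. For Mafa the ratio was 0.834, with PDGF-CC array 2 at 6.37 and the others between 5.74 and 5.84. For Arc, an activity-regulated gene of neurons, it was 0.937, with PDGF-CC array 1 at 6.72 and the others between 6.33 and 6.35. For Homer1, a postsynaptic scaffold gene, it was 0.893, with PDGF-CC array 2 at 5.50 and the others between 5.27 and 5.29. For Bdnf, a neuronal growth factor gene near the filter, it was 1, since PDGF-CC array 1 was at 4.16 and the other 3 arrays held exactly the same value, 4.27.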

How the results depend on the processing

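With the settings of the report 0 probe sets were called. The fit called 3, all lower, with a stricter filter (the 50th percentile), with arrays centred on their median and with a trended and robust prior. It called 1, again lower, with quantile normalization repeated and without PDGF-CC array 3, and 0 in the higher direction throughout. No member passed the adjusted threshold under any alternative, and the lowest adjusted p was 0.386, for Fos with the 2 parts of the description numbers as a block. All members but Fosl2 stayed positive in every fit. With 1 array left out, Fos ran from +0.53 to +0.82, Fosb from +0.40 to +0.66, Junb from +0.38 to +0.57, Jund from +0.49 to +0.74, Jun from +0.11 to +0.33, Atf3 from +0.23 to +0.46 and Fosl2 from -0.10 to +0.060. Fosl2 was positive at +0.019 with quantile normalization repeated, +0.0073 with arrays centred, +0.011 with the parts as a block, +0.022 with the replicate block and +0.027 without PDGF-CC array 1 and PBS array 2, an alternative chosen after seeing the data. Within numbers 1 to 4, differences were +1.04 (Fos), +0.76 (Fosb), +0.48 (Jun), +0.89 (Jund), +0.63 (Atf3) and +0.045 (Fosl2). Within 5 to 7 they were +0.33, +0.058, -0.097, +0.32 and +0.020 for the first 5 of these. The cause of these changes was not tested.

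The titles give both groups sample numbers 1 to 3. Deviations of same-numbered arrays from their group means correlated at 0.163, 0.107 and 0.084. Other pairs of arrays were not compared in this way, so these values cannot settle whether same-numbered samples belong together. With the sample number as a replicate block and PDGF-CC array 4 left out, 0 probe sets were called. Fos was then at +0.82 (adjusted p = 0.654 by limma). The number of arrays limits the precision of all values.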
